A study of Oryza sativa with 9 samples.

Results

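The transcripts described here are those of rice chromosome 5, the chromosome that carries f5, that the authors' tables list as differing between f5 genotypes. They were taken as every listed transcript with a chromosome 5 locus identifier, apart from those of 3 loci that the selection rule leaves out, which gave 82 transcripts of 75 loci out of 832 transcripts of 727 loci listed in all. The samples were spikelets (the grass flower units) of Oryza sativa BC14F2 plants that carried f5 as f5-i/j (heterozygous), f5-i/i or f5-j/j (homozygous). At f5, pollen fertility of crosses between indica and japonica rice is known to depend on which alleles meet. The polyA RNA came from 9 samples, 3 per genotype, and no treatment is named in the labels. The sources used here do not say whether the 3 samples of a genotype were separate plants or pools, or which parent the backcrosses returned to.

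Repeated backcrossing leaves a line that resembles 1 parent over most of the genome and carries a segment of the other parent around the locus that was selected. Genes linked to the locus therefore tend to differ in parentage between such homozygotes, and the heterozygote carries both versions. Loci with identifiers of the kind used here are numbered in their order along the chromosome, so that the number gives an order but not a distance. The sources used here do not place f5 among these numbers.

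The values are the authors' means of each genotype, whose unit the sources used here do not state, and no value of a single sample was analysed. The means thus carry no error, the read depth is unknown, and no difference below could be set against the spread between replicates or tested. The authors' deposited tables hold transcripts whose probability of a difference was 0.8 or more, so "higher" and "lower" below mean listed in that direction by the authors. The lowest mean is 0.01, which was read as no detection and enters no fold. Each value belongs to a single transcript model, so 0.01 means that this model was not detected. Other models of the same locus may carry signal that these lists do not give. In bulk spikelets, fewer cells of a type and less RNA per cell cannot be told apart. A transcript listed for a single pair of genotypes has no mean for the other genotype in these tables.

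Chromosome 5 gave listed transcripts in both directions for every pair of genotypes. Between f5-i/j plants and f5-i/i plants, 38 of the 82 transcripts were listed (46.3%, where 57.7% of all 832 were), the heterozygote being higher at 23 and lower at 15. The share higher was 60.5% on chromosome 5, while 53.3% of all transcripts in that authors' deposited table were higher and the other 11 chromosomes ranged between 40.0% and 59.1%. Between f5-i/j plants and f5-j/j plants, 37 were listed (45.1%, where 42.1% of all were), higher at 16 and lower at 21 in the heterozygote, and the share higher of 43.2% stood beside 44.6% over the whole authors' deposited table. The other 11 chromosomes ranged between 28.6% and 63.6% for this share. Between f5-i/i plants and f5-j/j plants, 44 were listed (53.7%, where 50.6% of all were), higher at 20 and lower at 24 in f5-i/i, and the share higher of 45.5% stood beside 45.1% over the whole authors' deposited table. Here the other chromosomes ranged between 29.4% and 65.2%. For direction, chromosome 5 was thus outside the range of the others in the first comparison alone, and this was not tested. The 2 comparisons with the heterozygote share its means, and each homozygote also serves in 2 comparisons. At a probability of 0.9 or more, the 3 comparisons held 6, 12 and 8 chromosome 5 transcripts.

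Chromosome 5 held 8.20%, 11.2% and 11.1% of the listed loci in these 3 comparisons. The other 11 chromosomes ranged between 4.22% and 14.8%, between 4.79% and 13.4%, and between 4.49% and 15%, in the same order, so chromosome 5 was inside the range each time. Shares of listed loci also depend on how many genes a chromosome carries, which was not corrected for.

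**Figure D1:**
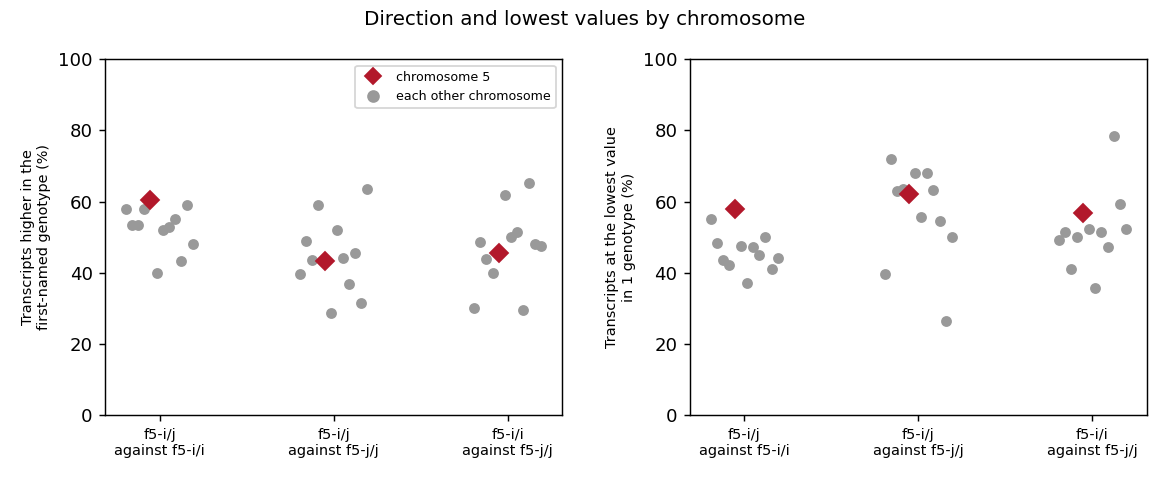
Left, the percentage of listed transcripts higher in the first-named genotype of each pair; right, the percentage with the lowest value of 0.01 in 1 genotype of the pair. Each point is 1 chromosome, with chromosome 5 as a diamond, which stood at 60.5%, 43.2% and 45.5% in the left panel and at 57.9%, 62.2% and 56.8% in the right panel.

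Many of the listed chromosome 5 transcripts were at the lowest value in a genotype. This held for 22 of 38 transcripts between f5-i/j plants and f5-i/i plants (57.9%, beside 47.5% over that whole authors' deposited table), 23 of 37 between f5-i/j plants and f5-j/j plants (62.2%, beside 58.0%) and 25 of 44 between f5-i/i plants and f5-j/j plants (56.8%, beside 50.8%). The other 11 chromosomes ranged between 37.0% and 55.1%, between 26.3% and 72.1%, and between 35.7% and 78.3%, in the same order. For this share chromosome 5 was thus above the others in the first comparison alone, and this was not tested. The lowest value was spread over the genotypes, at 17 of 62 transcripts with a mean in f5-i/j, 19 of 72 in f5-i/i plants and 16 of 67 in f5-j/j plants. Of the transcripts that were first models of their locus, 10 of 29 (34.5%) were at the lowest value in some genotype, and of the further models 33 of 53 (62.3%). On the other chromosomes these shares were 36.9% and 56.5%. Where both means were above the lowest value, the median fold of the chromosome 5 transcripts was 6.20, 6.45 and 5.79 in the 3 comparisons, beside 7.12, 6.53 and 7.37 over the whole authors' deposited tables.

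Listed loci were found from one end of the locus numbers to the other. In stretches of 10000 numbers they counted 18, 7, 5, 20, 19 and 6, the last of these stretches being only partly filled, and full stretches of the other chromosomes held 1 to 27 with a median of 9. No locus was listed between LOC_Os05g24970 and LOC_Os05g30870 or between LOC_Os05g14500 and LOC_Os05g18810, the longest gaps, of 5900 and 4310 numbers. Between f5-i/j plants and f5-j/j plants, 1 transcript was higher and 8 were lower in the heterozygote in the first stretch, and 4 were higher and 0 lower in the last. Those 8 include 2 models of the locus LOC_Os05g09550. Between f5-i/j plants and f5-i/i plants the fourth stretch had 9 higher and 2 lower. Between f5-i/i plants and f5-j/j plants that same stretch had 3 higher and 8 lower in f5-i/i, and the stretch after it had 7 higher and 4 lower. These stretches were compared by count alone and the differences between them were not tested.

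**Figure D2:**
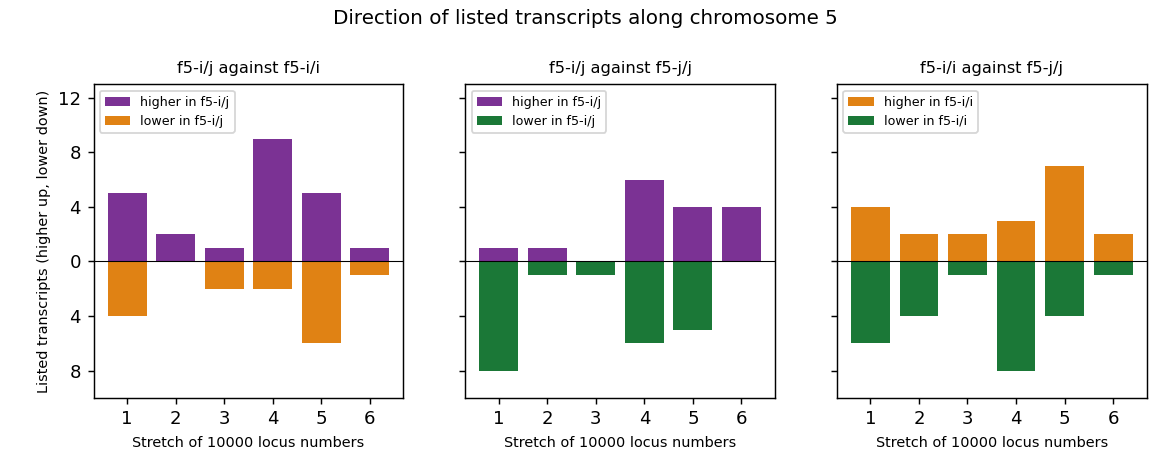
Numbers of listed chromosome 5 transcripts that were higher (upward bars) or lower (downward bars) in the first-named genotype, in 6 stretches of 10000 locus numbers. In the middle panel the first stretch has 1 higher and 8 lower, and the last has 4 higher and 0 lower. Over all listed transcripts of that comparison 44.6% were higher, and differences between stretches were not tested.

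**Figure D3:**
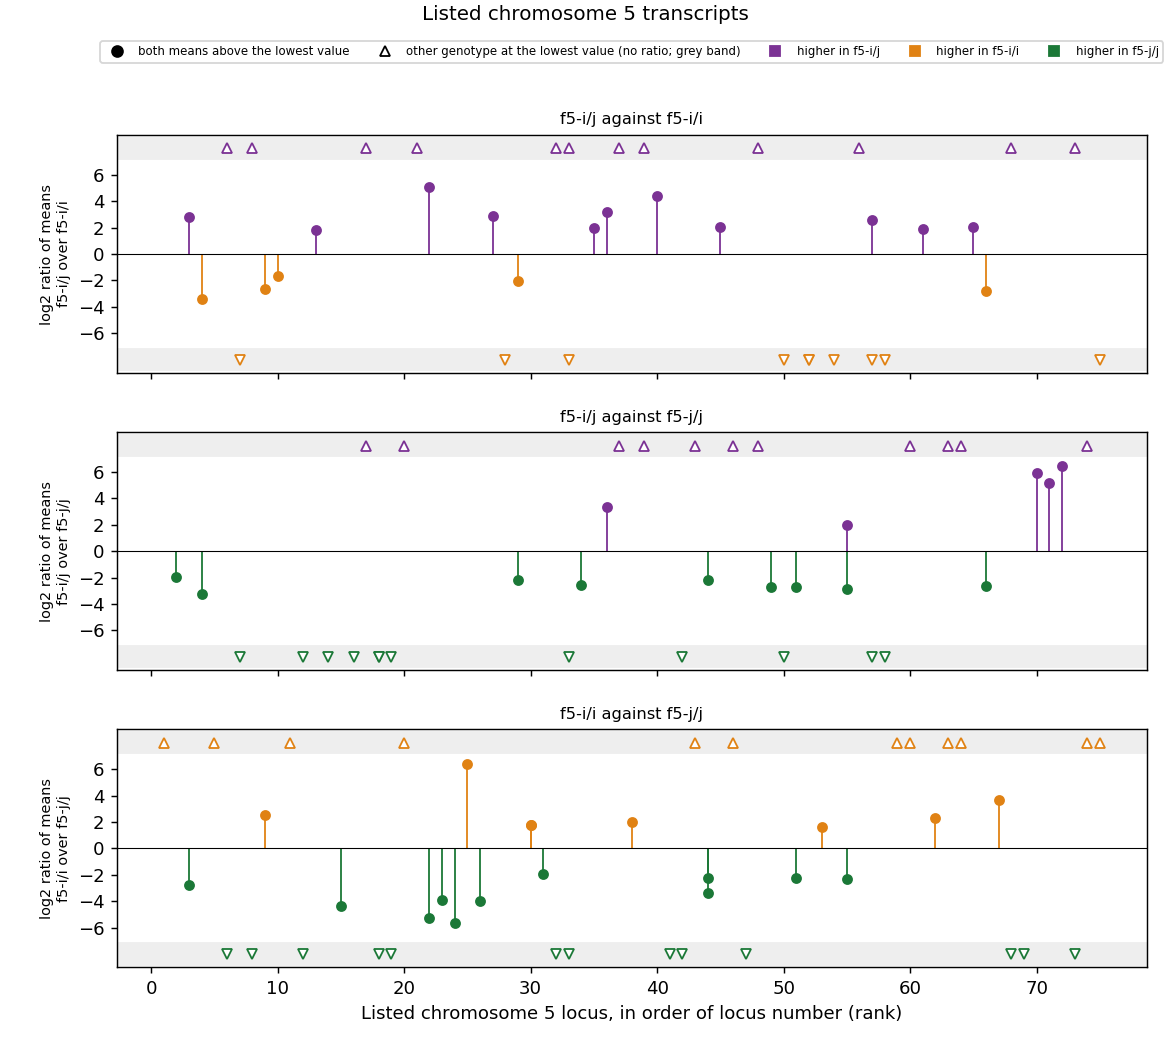
The log2 ratio of the authors' means for each listed chromosome 5 transcript, with loci in order of their number. Open triangles in the grey bands mark transcripts with the lowest value in 1 genotype, which have no ratio, and the filled points reach a 34.4-fold, an 86.2-fold and an 82.7-fold difference in the panels from top to bottom.

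The transcripts at the end of the chromosome that were higher in f5-i/j plants than in f5-j/j had nearly no signal in f5-j/j. A jasmonic acid-amino synthetase (LOC_Os05g50890.3), an enzyme type that makes the active amino acid conjugate of jasmonate, had authors' means of 7.65 in f5-i/j plants and 0.21 in f5-j/j plants. Next to it by number, LOC_Os05g50910.2 had authors' means of 8.62 in f5-i/j plants and 0.1 in f5-j/j plants, the largest fold (86.2) of the chromosome 5 transcripts in this comparison. Its description as a G protein subunit rests on a weak match. LOC_Os05g50750.2, with a weak match to elongation factor 1-alpha, had authors' means of 5.32 in f5-i/j plants and 0.09 in f5-j/j plants. The fourth, LOC_Os05g51420.1, has no description and had authors' means of 14.9 in f5-i/j plants, 19.4 in f5-i/i plants and 0.01 in f5-j/j plants. Means between 0.09 and 0.21 lie close to the lowest value, so folds against them are uncertain in size.

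Another neighbour of that run stood apart in the other homozygote. LOC_Os05g50930.1 is described as an RNA polymerase sigma factor, a nuclear-encoded protein that directs the plastid's bacterial-type RNA polymerase to promoters. Its authors' mean was 7.32 in f5-i/j plants, 0.01 in f5-i/i plants and 9.77 in f5-j/j plants.

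Translation factors and ribosomal proteins made up the largest described group on chromosome 5, with 7 transcripts of 6 loci (8.54% of the 82, where the group made up 4.45% of all 832). In f5-i/j, 1 was higher and 3, from 2 loci, were lower than in f5-i/i, and 1 was higher and 3 were lower than in f5-j/j, while none was listed between the homozygotes. Over all listed transcripts, 53.3% and 44.6% were higher in f5-i/j in these comparisons. LOC_Os05g39960.3 enters both counts of lower transcripts through the same f5-i/j mean. These small counts were not tested. The 1 higher than in f5-j/j was LOC_Os05g50750.2, whose match to elongation factor 1-alpha is weak. Ribosomal protein S26e of the small subunit (LOC_Os05g39960.3) was at 0.01 in f5-i/j plants, against authors' means of 35.6 in f5-i/i plants and 40.4 in f5-j/j plants. Ribosomal proteins often have near-identical gene copies in plants, and LOC_Os05g39960.3 is a further model of its locus, so the division of its reads is uncertain. Ribosomal protein L10e of the large subunit (LOC_Os05g07700.3) was at 0.01 in f5-i/j plants and at an authors' mean of 8.24 in f5-j/j plants. Initiation factor eIF3, which helps to place mRNA on the small subunit, was listed through 2 subunits. Subunit F (LOC_Os05g01450.2) had authors' means of 8.91 in f5-i/j plants and 34.7 in f5-j/j plants. Subunit L (LOC_Os05g13950.2) had authors' means of 4.29 in f5-i/j plants and 0.01 in f5-i/i plants. The subunits were listed for different pairs of genotypes, so their directions cannot be compared. Initiation factor 1 (LOC_Os05g41900), which acts in start codon choice, had 2 transcript models of identical length and identical values, at 0.01 in f5-i/j plants and 6.08 in f5-i/i plants by the authors' mean, which count as 1 measurement.

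Transcripts grouped by their descriptions under RNA processing were higher in f5-i/i plants than in f5-j/j wherever they were listed for that pair, 4 of 4 transcripts of 3 loci, in a group of 5 (6.10% of the 82, where 2.40% of all 832 were in it), where 45.1% of all transcripts in the authors' deposited table were higher. Apart from LOC_Os05g24970, these loci have weak matches, so the shared direction rests on 1 well-matched locus. The group counted 1 higher and 1 lower between f5-i/j plants and f5-i/i plants, and 2 higher and 0 lower between f5-i/j plants and f5-j/j plants. Over all listed transcripts, 53.3% and 44.6% were higher in f5-i/j for these pairs. Small nuclear ribonucleoprotein D2, a core protein of the spliceosome, had authors' means of 56.0 in f5-i/i plants and 16.1 in f5-j/j plants for LOC_Os05g24970.1. The other model of the locus, LOC_Os05g24970.3, had authors' means of 154 in f5-i/i plants and 44.5 in f5-j/j plants, a fold of 3.46 beside 3.48. LOC_Os05g45930.2, with a weak match to the RNA-binding protein Musashi, had authors' means of 4.32 in f5-i/j plants, 19.5 in f5-i/i plants and 0.01 in f5-j/j plants. LOC_Os05g51690.3, with a weak match to the RPP1 subunit of ribonuclease P, was at an authors' mean of 4.32 in f5-i/i plants and at 0.01 in both f5-i/j and f5-j/j. Ribonuclease P trims the leader of precursor tRNAs, and its POP4 subunit (LOC_Os05g39530.2) had authors' means of 3.57 in f5-i/j plants and 0.01 in both f5-i/i and f5-j/j.

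Beyond the words that defined that group, 2 more transcripts concern RNA. A polypyrimidine tract-binding protein (LOC_Os05g36120.2), a regulator of splicing, had authors' means of 36.9 in f5-i/i plants and 9.02 in f5-j/j plants, the same direction as the spliceosome protein. Fibrillarin (LOC_Os05g08360.2), which methylates ribosomal RNA in the nucleolus, was at 0.01 in f5-i/j plants and at an authors' mean of 3.74 in f5-j/j plants.

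The transport and trafficking group held 3 transcripts (3.66% of the 82, where 1.92% of all 832 were in it), 2 of which were lower in f5-i/j plants than in either homozygote. The delta subunit of coatomer (LOC_Os05g24601.3), part of the coat of vesicles that return from the Golgi to the endoplasmic reticulum, had authors' means of 18.1 in f5-i/j plants, 74.7 in f5-i/i plants and 80.4 in f5-j/j plants. The 16 kDa proteolipid of the V-type ATPase (LOC_Os05g01560.2), the membrane ring of the proton pump that acidifies vacuoles and vesicles, had authors' means of 1.37 in f5-i/j plants, 14.5 in f5-i/i plants and 13.2 in f5-j/j plants. Both were thus lowest in the heterozygote, with homozygotes within 1.09-fold of each other. Outside that group, 3 more transcripts of membrane traffic were picked after their values were seen. A secretory carrier-associated membrane protein (LOC_Os05g42330.2) spans membranes of the secretory and endocytic routes and had authors' means of 253 in f5-i/i plants and 83.2 in f5-j/j plants. Dynamin GTPases pinch off vesicles. The one listed here (LOC_Os05g48240.4) had authors' means of 12.9 in f5-i/j plants, 6.98 in f5-i/i plants and 0.01 in f5-j/j plants. LOC_Os05g39610.2, with a weak match to exocyst component 7, of the complex that tethers secretory vesicles at the plasma membrane, had authors' means of 3.09 in f5-i/j plants and 20.0 in f5-j/j plants.

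In the endoplasmic reticulum, Derlin takes part in the export of misfolded proteins for degradation. Both listed Derlin models were higher in f5-j/j. LOC_Os05g09550.3 had authors' means of 0.01 in f5-i/j plants, 0.01 in f5-i/i plants and 4.78 in f5-j/j plants. LOC_Os05g09550.2 was at 0.01 in f5-i/j plants and at an authors' mean of 8.24 in f5-j/j plants. The oligosaccharyltransferase subunit LOC_Os05g44360.2, named STT3A in RefSeq, belongs to the complex that adds N-glycans to new proteins there, and had authors' means of 4.56 in f5-i/j plants and 0.01 in f5-i/i plants.

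Protein folding and turnover gave both directions. The single co-chaperone, a DnaJ homolog of subfamily B (LOC_Os05g48810.1), which delivers substrates to HSP70, had authors' means of 20.0 in f5-i/j plants, 142 in f5-i/i plants and 122 in f5-j/j plants. The heterozygote was 7.07-fold lower than f5-i/i and 6.11-fold lower than f5-j/j. Ubiquitin and proteasome transcripts counted 4 of 3 loci (4.88% of the 82, where 5.77% of all 832 were in this group), with 2 higher against 1 lower for f5-i/j over f5-j/j and 2 higher against 2 lower for f5-i/i over f5-j/j. Over all listed transcripts, 44.6% and 45.1% were higher in these comparisons. A HECT-type ubiquitin ligase described as TRIP12 (LOC_Os05g38830.1) had authors' means of 11.6 in f5-i/j plants, 3.79 in f5-i/i plants and 0.01 in f5-j/j plants. Subunit 5 of the 26S proteasome (LOC_Os05g48340.2), which in yeast and mammals helps to assemble the regulatory particle, had authors' means of 9.86 in f5-i/j plants, 5.93 in f5-i/i plants and 0.01 in f5-j/j plants. As for the dynamin, both listed models were without signal in f5-j/j, and none of the 3 was listed between f5-i/j plants and f5-i/i plants. The other locus of the group, LOC_Os05g38270, had its higher means in f5-j/j.

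Plastid proteins were few on chromosome 5. Photosystem I subunit VI (LOC_Os05g48630.2), a small protein of the photosystem core, had authors' means of 78.8 in f5-i/j plants and 19.1 in f5-i/i plants. It was the only one of the 24 transcripts described as photosystem, chlorophyll or light-harvesting proteins that lies on chromosome 5. For that pair of genotypes 23 of the 24 such transcripts had the higher mean in f5-i/j by the authors' deposited table, and the part that green hull tissue has in this difference was not tested. The plastid enzyme 1-deoxy-D-xylulose-5-phosphate synthase (LOC_Os05g33840.1), named CLA1 or DXPS in RefSeq, starts the plastid route to isoprenoids such as carotenoids and the chlorophyll side chain. Its authors' mean was 34.4 in f5-i/j plants and 8.54 in f5-i/i plants, a 4.02-fold difference beside the 4.13-fold of the photosystem subunit.

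The 6 enzymes that follow were picked from those listed between the homozygotes, 2 of them higher and 4 lower in f5-i/i. Over all transcripts listed for that pair, 45.1% were higher in f5-i/i. Further listed enzymes are given elsewhere, so the count holds for these 6 alone. Phosphoglycerate mutase (LOC_Os05g40420.2), a glycolytic enzyme, had authors' means of 8.89 in f5-i/j plants, 12.3 in f5-i/i plants and 57.0 in f5-j/j plants. Phosphoethanolamine N-methyltransferase (LOC_Os05g47540.2), which makes the choline head group of membrane lipids, went the other way, with authors' means of 102 in f5-i/i plants and 21.1 in f5-j/j plants. A galacturan 1,4-alpha-galacturonidase (LOC_Os05g20020.1), of a pectin-degrading enzyme family, had authors' means of 1.01 in f5-i/i plants and 16.3 in f5-j/j plants. LOC_Os05g45720.2, with a weak match to starch synthase, had authors' means of 4.52 in f5-i/i plants and 0.01 in f5-j/j plants. The transcript LOC_Os05g31140.1, with a weak match to glucan endo-1,3-beta-glucosidases, which cut callose-type glucans, had authors' means of 4.42 in f5-i/j plants, 0.01 in f5-i/i plants and 5.62 in f5-j/j plants. A further model of a peroxidase locus (LOC_Os05g04380.2) was likewise undetected in f5-i/i, with authors' means of 21.7 in f5-i/j plants, 0.01 in f5-i/i plants and 15.9 in f5-j/j plants.

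Peroxin-14 docks the import receptors of peroxisomes. It (LOC_Os05g01090.3) had authors' means of 7.62 in f5-i/i plants and 0.01 in f5-j/j plants. A receptor-like cytoplasmic kinase described as PBS1 (LOC_Os05g30870.2), which in Arabidopsis is guarded by a disease resistance protein, had authors' means of 13.3 in f5-i/i plants and 51.4 in f5-j/j plants. Solute transporters were listed through 2 transcripts, the first of which belongs to the transport and trafficking group above. LOC_Os05g07940.2, with a weak match to nucleobase transporters, had authors' means of 0.477 in f5-i/i plants and 10.1 in f5-j/j plants. LOC_Os05g23440.1, of solute carrier family 35, was at 0.01 in f5-i/j plants and at an authors' mean of 4.45 in f5-i/i plants.

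Among transcripts above the lowest value in both genotypes, the largest fold of each comparison belonged to a transcript with a weak match or no description. LOC_Os05g19470.3 had authors' means of 9.38 in f5-i/i plants and 0.113 in f5-j/j plants, an 82.7-fold difference. LOC_Os05g18810.1 stood at 0.167 in f5-i/i plants and 8.39 in f5-j/j plants by the authors' mean, and its match to a Mediator subunit is a weak one to a gene of chromosome 9. LOC_Os05g14440.1 had authors' means of 8.38 in f5-i/j plants, 0.243 in f5-i/i plants and 9.26 in f5-j/j plants. Its neighbour LOC_Os05g14500.1 was likewise lower in f5-i/i, with authors' means of 1.12 beside 17.0 in f5-j/j plants. The closest matches of both are weak. LOC_Os05g37060.1, with a weak match to a kinase family, had authors' means of 8.68 in f5-i/j plants and 0.423 in f5-i/i plants.

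No description was given for 30 of the 82 transcripts, and 17 of these had at least a cellular component, function or process term. LOC_Os05g32110.2 was undetected in f5-i/i alone and had authors' means of 60.2 in f5-i/j plants, 0.01 in f5-i/i plants and 51.8 in f5-j/j plants. LOC_Os05g05040.1 was high in f5-i/i alone, with authors' means of 3.61 in f5-i/j plants, 22.7 in f5-i/i plants and 3.92 in f5-j/j plants. LOC_Os05g01530.1 was low in f5-i/i alone, with authors' means of 28.5 in f5-i/j plants, 4.09 in f5-i/i plants and 27.4 in f5-j/j plants. LOC_Os05g34470.2 was high in f5-i/j alone, with 19.3 in f5-i/j plants, 2.17 in f5-i/i plants and 1.86 in f5-j/j plants by the authors' mean. LOC_Os05g06700.1 was detected in f5-j/j alone, with authors' means of 0.01 in f5-i/j plants, 0.01 in f5-i/i plants and 12.3 in f5-j/j plants. LOC_Os05g10620.2 showed the same pattern, with authors' means of 0.01 in f5-i/j plants, 0.01 in f5-i/i plants and 4.09 in f5-j/j plants. For LOC_Os05g12170.1 only f5-j/j was without signal, with authors' means of 5.62 in f5-i/j plants, 4.25 in f5-i/i plants and 0.01 in f5-j/j plants. LOC_Os05g45050.2 was without signal in the heterozygote, with authors' means of 0.01 in f5-i/j plants, 4.92 in f5-i/i plants and 9.34 in f5-j/j plants. For LOC_Os05g02260.2 and LOC_Os05g49410.2 it was f5-i/i that stood at 0.01, beside authors' means of 4.29 and 3.97 in f5-i/j plants and of 5.09 and 5.95 in f5-j/j plants. The transcripts without a description thus did not share a pattern over the genotypes.

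Further transcripts without a description were listed for 1 pair of genotypes. LOC_Os05g06780.1 had authors' means of 43.1 in f5-i/j plants and 12 in f5-i/i plants. LOC_Os05g22614.1 had authors' means of 19.3 in f5-i/j plants and 2.67 in f5-i/i plants, so both were higher in the heterozygote. LOC_Os05g33700.1 was lower there, with authors' means of 9.06 in f5-i/j plants and 53.2 in f5-j/j plants. LOC_Os05g44080.2 was at 0.01 in f5-i/j plants and at an authors' mean of 6.17 in f5-i/i plants. LOC_Os05g49060.1 was higher in f5-i/i, with authors' means of 13.3 in f5-i/i plants and 1.06 in f5-j/j plants. By group, the transcripts without a description were 11 higher against 5 lower for f5-i/j over f5-i/i, 6 higher against 6 lower for f5-i/j over f5-j/j, and 8 higher against 10 lower for f5-i/i over f5-j/j. Over all listed transcripts, 53.3%, 44.6% and 45.1% were higher in these comparisons, in the same order, and the differences from these shares were not tested.

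Descriptions that rest on weak matches covered a further pair of transcripts with values in every genotype. LOC_Os05g34700.2, closest to geranylgeranyl reductase, had authors' means of 7.18 in f5-i/j plants, 0.01 in f5-i/i plants and 0.01 in f5-j/j plants. LOC_Os05g03120.3, closest to myosin heavy chain, showed the reverse, with authors' means of 0.01 in f5-i/j plants, 4.53 in f5-i/i plants and 4.26 in f5-j/j plants.

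For 37 of the 82 transcripts the tables give means of all 3 genotypes. The heterozygote was above both homozygotes in 13 of them (35.1%, where 27.3% of all 407 such transcripts were), below both in 11 (29.7%, where 28.3% were) and between or level with them in 13 (35.1%, where 44.5% were). Of these last, 5 were level with a homozygote at 0.01 and 8 were strictly between. In 7 of the 8 the heterozygote was within 2-fold of the nearer homozygote, at 1.07-fold to 1.5-fold. The Musashi-like LOC_Os05g45930.2 was the remaining one, with a mean in f5-i/j plants 4.51-fold under that in f5-i/i plants, a pair for which it was not listed, and no signal in f5-j/j. Means of all genotypes exist only where a transcript was listed for 2 or more pairs, so these counts are partly set by the listing. When only a mean at least 1.5 times past the nearer homozygote counted as beyond it, 8 were above, 8 below and 21 between.

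**Figure D4:**
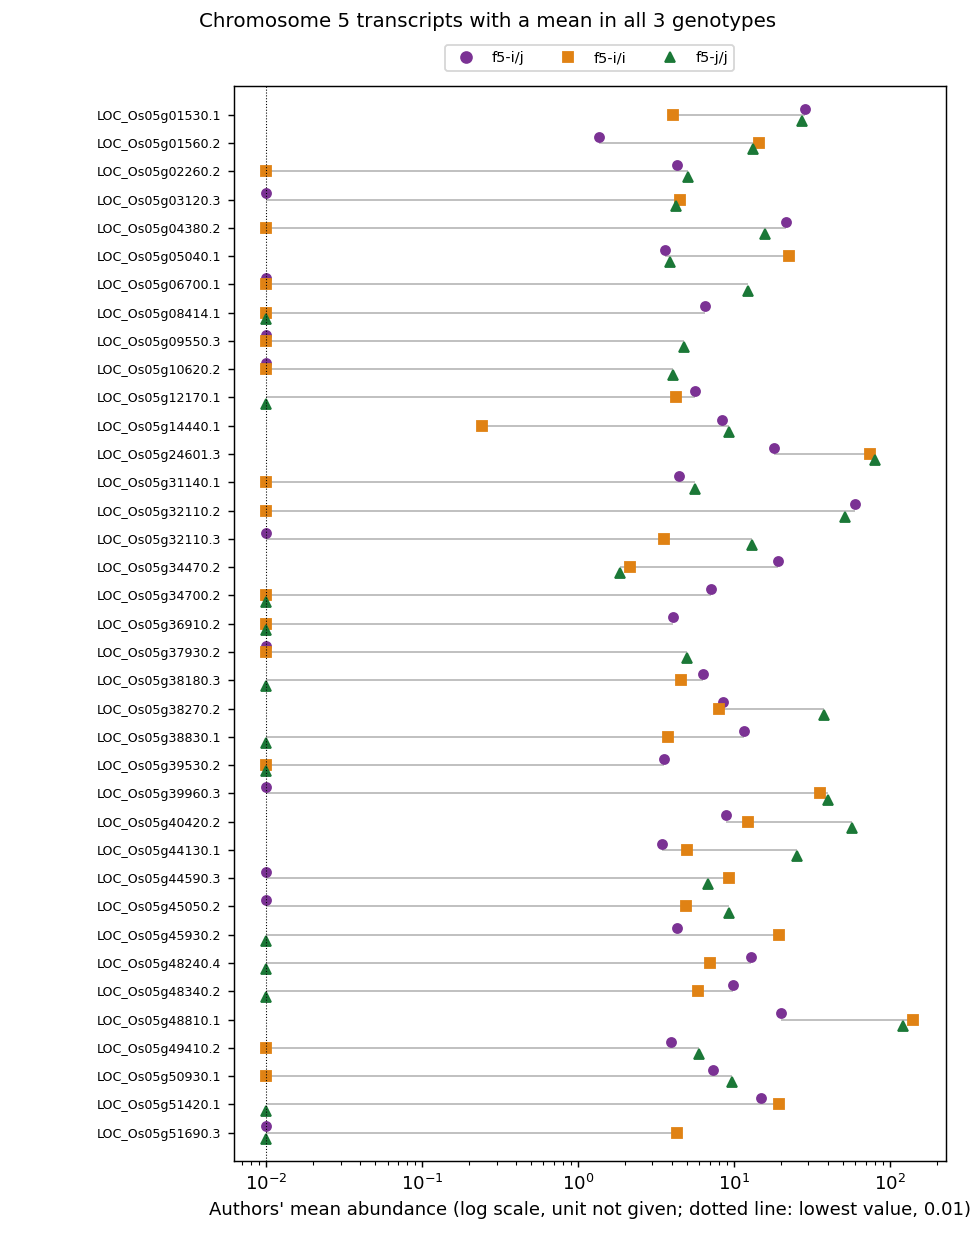
The authors' means of the 37 chromosome 5 transcripts with values in f5-i/j, f5-i/i and f5-j/j, on a logarithmic axis, in order of locus number from top to bottom. Points on the dotted line are at the lowest value of 0.01, and LOC_Os05g45930.2 is the transcript whose f5-i/j point (4.32) lies between the homozygotes (19.5 in f5-i/i plants and 0.01 in f5-j/j plants) and 2-fold or more from both.

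The heterozygote was listed against both homozygotes at 13 transcripts, in comparisons that share its means, and was lower at 8 and higher at 5. These 13 were 35.1% of the 37, where 32.7% of all 407 were, and 61.5% of them were lower, where 69.9% of all were. The lower ones included the S26e, coatomer, proton pump and DnaJ transcripts. Of the 5 higher, 4 were without signal in both homozygotes, namely LOC_Os05g34700.2, LOC_Os05g39530.2, LOC_Os05g08414.1 and LOC_Os05g36910.2, the last 2 with authors' means of 6.5 and 4.07 in f5-i/j plants. The genotype f5-i/i was listed against both others at 10 transcripts (27.0%, where 42.5% of all 407 were), lower at 8 (80.0%, where 59.5% of all were) and higher at 2. The genotype f5-j/j was listed against both others at 14 (37.8%, where 21.9% of all 407 were), higher at 7 and lower at 7, and all 7 of the lower ones were at 0.01 in f5-j/j plants (50% of the 14, where 38.2% of all were). These differences from the whole tables were not tested.

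Of the 75 loci, 7 had 2 listed transcript models, and at 3 of them the models went opposite ways within a comparison. Gamma-glutamyl hydrolase (LOC_Os05g44130) trims the glutamate tail of folates. LOC_Os05g44130.1 had authors' means of 3.48 in f5-i/j plants, 4.97 in f5-i/i plants and 25.4 in f5-j/j plants, whereas LOC_Os05g44130.2 had 45.4 in f5-i/j plants and 11.4 in f5-j/j plants. A locus described as cereblon, in humans the substrate receptor of a ubiquitin ligase, also had models in opposite directions. LOC_Os05g44590.2 had authors' means of 25.2 in f5-i/j plants and 4.12 in f5-i/i plants, and LOC_Os05g44590.3 had 0.01 in f5-i/j plants, 9.31 in f5-i/i plants and 6.80 in f5-j/j plants. LOC_Os05g32110.3 had authors' means of 0.01 in f5-i/j plants, 3.55 in f5-i/i plants and 13 in f5-j/j plants, opposite to the model LOC_Os05g32110.2 described above between f5-i/j plants and f5-i/i plants, while both models had the higher mean in f5-j/j of the homozygotes. At these 3 loci the estimated division between the models thus differed between genotypes, and whether the total of the locus differed too was not tested. The division of reads between models is itself an estimate.

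Models of LOC_Os05g38270, with a weak match to a HERC4 ubiquitin ligase, went the same way. LOC_Os05g38270.2 had authors' means of 8.55 in f5-i/j plants, 7.98 in f5-i/i plants and 37.9 in f5-j/j plants, and LOC_Os05g38270.1 had 1.90 in f5-i/i plants and 19.8 in f5-j/j plants.

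**Figure D5:**
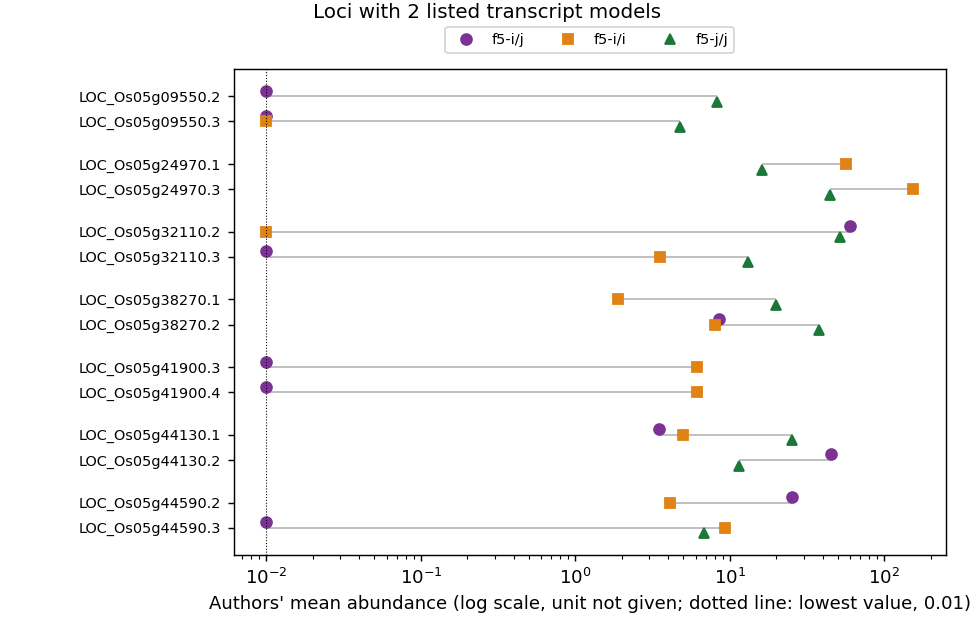
The authors' means, on a logarithmic axis, of the 7 chromosome 5 loci with 2 listed transcript models. A genotype is missing where the tables give no mean, and LOC_Os05g32110, LOC_Os05g44130 and LOC_Os05g44590 have models listed in opposite directions in 1 comparison, such as 60.2 and 0.01 in f5-i/j at LOC_Os05g32110.

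Neighbouring listed loci did not share a direction throughout. There were 13 pairs of consecutive listed loci at most 100 numbers apart, and 9 of them were listed together for some pair of genotypes. In 11 such instances the direction was the same in 6 and opposite in 5. The pairs LOC_Os05g38180 with LOC_Os05g38270 and LOC_Os05g48240 with LOC_Os05g48340 enter more than once, in comparisons that share the f5-j/j means. The 11 instances are thus not all separate. The dynamin and proteasome subunit transcripts, 100 numbers apart, were both at 0.01 in f5-j/j plants. LOC_Os05g37890.1 and LOC_Os05g37930.2, 40 numbers apart, were both at 0.01 in f5-i/i plants, against authors' means of 6.25 and 5.03 in f5-j/j plants. LOC_Os05g05040.1 and LOC_Os05g05060.1, 20 apart, were both lower in f5-i/j plants than in f5-i/i, and the second had authors' means of 28.6 in f5-i/j plants and 91.5 in f5-i/i plants. Opposite neighbours included LOC_Os05g38180.3, which had authors' means of 6.37 in f5-i/j plants, 4.55 in f5-i/i plants and 0.01 in f5-j/j plants, next to the HERC4-like locus with its highest means in f5-j/j.

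Of 9 named chromosome 5 loci, picked mainly for roles in spikelets, grains or meiosis, none was listed. They were the floral MADS-box genes OsMADS58 and OsMADS4, the meiotic gene MSH5, the grain size and quality genes GW5, GS5 and Chalk5, the transcription factor gene xa5 and the hexokinase genes HXK5 and HXK7. The share of all chromosome 5 loci that was listed is unknown here, so this absence cannot be set against it. The tables are filtered, so a gene of this list may be without a difference or below detection. Of 3 tapetum loci of the whole genome, 1 was listed, and the spikelet label was not checked further for the same reason.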

How the data were processed

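Spikelet RNA of 9 samples, 3 per genotype, was sequenced. Per the submitters' processing notes BWA, Bowtie and RSEM were used, without version or role; the sources used here name no build or normalization. Per genotype the authors deposited a mean signal without a stated unit, and 100% of means were what 3 values with 2 decimals can average to, within 1e-06 of a step. Genotypes of columns came from the table names; recurring means differed by 0. The deposited log2 ratio was recomputed from the means. Their deposited probability, 0.8 to 1, is a score and no p-value. Lengths are those of the deposited tables.

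Python 3.11.15 counted members by comparison, direction, stretches of 10000 locus numbers, neighbours within 100 numbers, and groups defined by words in the first KEGG match. Of 52 descriptions, 16 had under 1 bit per residue and are called weak, a limit chosen after they were seen. Some words misplace members. Of 10 best matches to a rice gene, 9 lie on RefSeq chromosome 5 (ASM3414082v1). The members and lists were chosen with earlier results of these data known. Named were transcripts in 2 or more tables and those with the largest ratios (10 per table) or highest means beside 0.01 (5 per direction). Also named were those sharing a locus, neighbours and described members of the stretch with the most listed loci, 70 of 82 by all these rules. That stretch was found from these same lists. Others named were chosen after their values were seen. No test was run, because values of single samples were not analysed here. The classification of the heterozygote was run on simulated means made by the same definition, without ties or values of 0.01, so this checked the code alone.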

Additional observations from a re-analysis of the deposited data

How the results depend on the processing

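Values come in the order of f5-i/j plants against f5-i/i plants, f5-i/j plants against f5-j/j plants and f5-i/i plants against f5-j/j plants. With a probability of at least 0.9, the chromosome 5 transcripts listed numbered 6, 12 and 8, those higher 4, 5 and 4, and those lower 2, 7 and 4, and chromosome 5 held 5.66%, 12.6% and 8.0% of the listed loci. Without transcripts at the lowest value, 16, 14 and 19 remained, 11, 5 and 8 of them higher and 5, 9 and 11 lower, by construction a smaller list. The fullest stretch held 20 loci, 13 with stretches of 5000 numbers and 9 without transcripts at the lowest value. When the heterozygote counted as beyond the homozygotes only at 1.5 times past the nearer one, 8 transcripts were above, 8 below and 21 between. Without any mean at the lowest value, 2 were above, 6 below and 2 between. A ratio of at least 4-fold, loci in place of transcripts, the 3 left-out loci included and a pseudocount of 1 moved no count or median by over 1.5 times. A median ratio at a probability of at least 0.9 could not be had, since every such chromosome 5 transcript was at the lowest value in a genotype. No paired analysis was possible because the tables hold means of genotypes, and leaving out a sample was not possible for the same reason. Read depth is unknown, so low means cannot be told apart from no expression.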
